A study of Homo sapiens with 2 samples.

Results

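The regulators of G-protein signalling (RGS) are described here across cells that received an siRNA against the long isoform of NSD3 and cells that received a control siRNA. The members are RGS2, RGS3, RGS4, RGS5, RGS10, RGS12, RGS14, RGS16, RGS19 and RGS20, taken as all probes whose gene symbol in the probe annotation was one of these 10. They had 21 of the 48701 probes on the array. The family was selected on the intensity ratio of RGS4 between these arrays, so the values of RGS4 describe that choice and support nothing by themselves.

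The cells were MDA-MB-231, a highly invasive, established human breast cancer line, and RNA levels were read on 1-colour Illumina beadchips. One array held RNA of cells transfected with an siRNA directed at NSD3L, the long form of the histone methyltransferase NSD3, at 20 nM. The other held RNA of cells transfected with a non-targeting control siRNA, whose concentration the labels do not give. Both cultures received 2 transfections 48 h apart, with the same reagent, and cells were harvested after another 48 h. There was 1 array per group, so no value has an error between cultures, no p-value was computed, and culture, RNA extraction, array and siRNA cannot be told apart.

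A G protein is switched on by a receptor that loads GTP onto its alpha subunit, and it switches off when that GTP is hydrolysed. RGS proteins bind the active alpha subunit and speed the hydrolysis, so they shorten signalling through Gi and Gq and their relatives. The R4 subfamily (RGS2, RGS3, RGS4, RGS5 and RGS16 here) is made mostly of small proteins. The R12 subfamily holds RGS10 and the larger RGS12 and RGS14, which also carry a GoLoco motif that binds inactive alpha subunits. The RZ subfamily holds RGS19 and RGS20. RGS4 acts on Gi and Gq alpha subunits and is known to restrain the migration of breast cancer cells.

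RGS4, RGS2 and RGS16 are the members that read lowest on the NSD3L siRNA array relative to the control array, and all 3 lie on chromosome 1. RGS5 lies on chromosome 1 too, but was at background and gave no ratio, and RGS16 read close to background. The upstream sequences of RGS4, RGS2 and RGS16 are shown to let a reader see how the start regions of these 3 genes differ. The sequences are from RefSeq (GRCh38.p14), cover 250 bases before an annotated start, and are written 5′ to 3′ on the gene's strand. Capitals mark matches to the TATA box (TATAAA), the CCAAT box and the GC box (GGGCGG) on either strand.
RGS4, chr1:163069111-163069360, plus strand: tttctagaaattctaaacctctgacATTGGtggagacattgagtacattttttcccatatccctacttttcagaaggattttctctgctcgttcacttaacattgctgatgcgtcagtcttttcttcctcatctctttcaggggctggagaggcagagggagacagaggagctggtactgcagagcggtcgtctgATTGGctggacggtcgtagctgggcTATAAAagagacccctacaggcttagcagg
RGS2, chr1:192808789-192809038, plus strand: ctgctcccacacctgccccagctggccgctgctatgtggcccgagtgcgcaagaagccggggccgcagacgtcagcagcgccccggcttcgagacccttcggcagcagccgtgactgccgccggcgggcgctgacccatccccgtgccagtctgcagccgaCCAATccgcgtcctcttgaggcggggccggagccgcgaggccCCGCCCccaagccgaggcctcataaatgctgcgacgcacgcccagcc
RGS16, chr1:182604390-182604639, minus strand: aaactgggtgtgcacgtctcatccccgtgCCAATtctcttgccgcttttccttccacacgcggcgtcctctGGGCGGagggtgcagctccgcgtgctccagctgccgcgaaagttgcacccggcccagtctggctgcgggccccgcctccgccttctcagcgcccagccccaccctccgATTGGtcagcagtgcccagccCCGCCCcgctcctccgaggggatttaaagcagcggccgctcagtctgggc

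The RGS4 window is 1 of 4 that RefSeq annotates for this gene, chosen because it alone of the 4 holds TATAAA, 30 bases before the start. Its base composition was 47.6% G and C, against 72.8% for RGS2, 68.4% for RGS16 and a median of 58% over 35116 windows of the same length. The other 3 RGS4 windows held 36%, 42.8% and 49.2% G and C. TATAAA was in 10.7% of all windows. The RGS4 window was chosen for holding it, so nothing is read from its match against that share. Shares here are per window, and a gene with several windows has more places for a match. CCAAT, found in the windows of all 3 genes, was in 32% of all windows, and GGGCGG, found in those of RGS2 and RGS16 and in none of RGS4, was in 42.6%. The letters TGACGTCA (the cAMP response element), TGACTCA (an AP-1 site) and CACGTG (an E-box) were searched too, and none of the 3 genes held them. They were in 1.65%, 4.2% and 6.34% of all windows. Other members held some of the same letters. CCAAT was also in windows of RGS3 and RGS5, and TATAAA in a window of RGS3, 166 bases before the start. By its brightest probe RGS3 read 44.0 in NSD3L siRNA cells and 44.5 in control cells. Both readings were close to the background described below, where ratios are drawn toward 1. GGGCGG was also in windows of RGS3, RGS5, RGS10, RGS12 and RGS19, and CACGTG in windows of RGS3 and RGS19. These matches describe the letters only, and no measure of factor binding, or of the start used in these cells, was used.

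The deposited values are linear probe intensities that still contain a background. The most frequent intensity was 34.8 in NSD3L siRNA cells and 34.9 in control cells. A floor at the upper edge of that background stood at 40.9 in NSD3L siRNA cells and at 41.0 in control cells. Ratios of probes near the floor are drawn toward 1, because both readings are then mostly background. The log2 ratio below is that of NSD3L siRNA cells over control cells, so a negative value means lower in NSD3L siRNA cells, and a probe is called above background where it exceeds the floor. A gene is represented by its brightest probe, and levels are not set against each other between probes, whose binding strengths differ.

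The 3 NSD3 probes read 37.6 to 41.6 in NSD3L siRNA cells and 41.9 to 55.3 in control cells. All 3 were lower in NSD3L siRNA cells, but the readings of 37.6 and 40.8 there were under the floor. The probes were too near the floor to establish the depth of the knockdown, and which form of NSD3 each one reads was not checked. All 6 markers of the MDA-MB-231 line were above background on both arrays, 5 higher and 1 lower in NSD3L siRNA cells. Of these 6, 2 were more than 1.5-fold higher, where 3.63% of all genes were. Of 6 luminal markers 4, ESR1, PGR, GATA3 and FOXA1, were below the floor on both arrays. The other luminal markers were above background on both: EPCAM read 113 in NSD3L siRNA cells and 110 in control cells, and CDH1 read 47.6 in NSD3L siRNA cells and 45.4 in control cells. Of 6 markers of mural cells, the vessel-wall cells that RGS5 is known for, 2 were above background on both arrays. ACTA2 read 115 in NSD3L siRNA cells and 101 in control cells, and CSPG4 read 59.2 on each array. ABCC9 was above background in NSD3L siRNA cells alone, at 42.7 there against 39.5 in control cells. The other mural markers MYH11, NOTCH3 and KCNJ8 were below the floor on both. Summed over the mural list, the intensity was 327 in NSD3L siRNA cells and 309 in control cells. Of the markers of other cell types, 1 of 5 for fibroblasts, 2 of 4 for blood cells and macrophages and 1 of 3 for endothelium were above background on both arrays.

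RGS4 was the member that differed most. Its only probe (ILMN_1758067) read 125 in NSD3L siRNA cells and 402 in control cells, which was 3.21-fold lower, a log2 ratio of -1.68. This was the third lowest log2 ratio among 16511 probes above background on both arrays. Among the 1651 probes of similar brightness the log2 ratio had an SD of 0.40, and only 2 of them, RGS4 included, had a ratio as low. That SD describes the spread between probes of these arrays, not between cultures. A lower reading cannot tell less RNA per cell from fewer cells that make it. RGS4 was the only member more than 2-fold lower, the threshold in the series description, and no member was more than 2-fold higher. Among all 10545 genes above background on both arrays, 0.607% were more than 2-fold lower and 0.341% more than 2-fold higher. Because RGS4 was chosen for its ratio, nothing is read from its count against that background. Just outside the threshold stood RGS2.

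**Figure D1:**
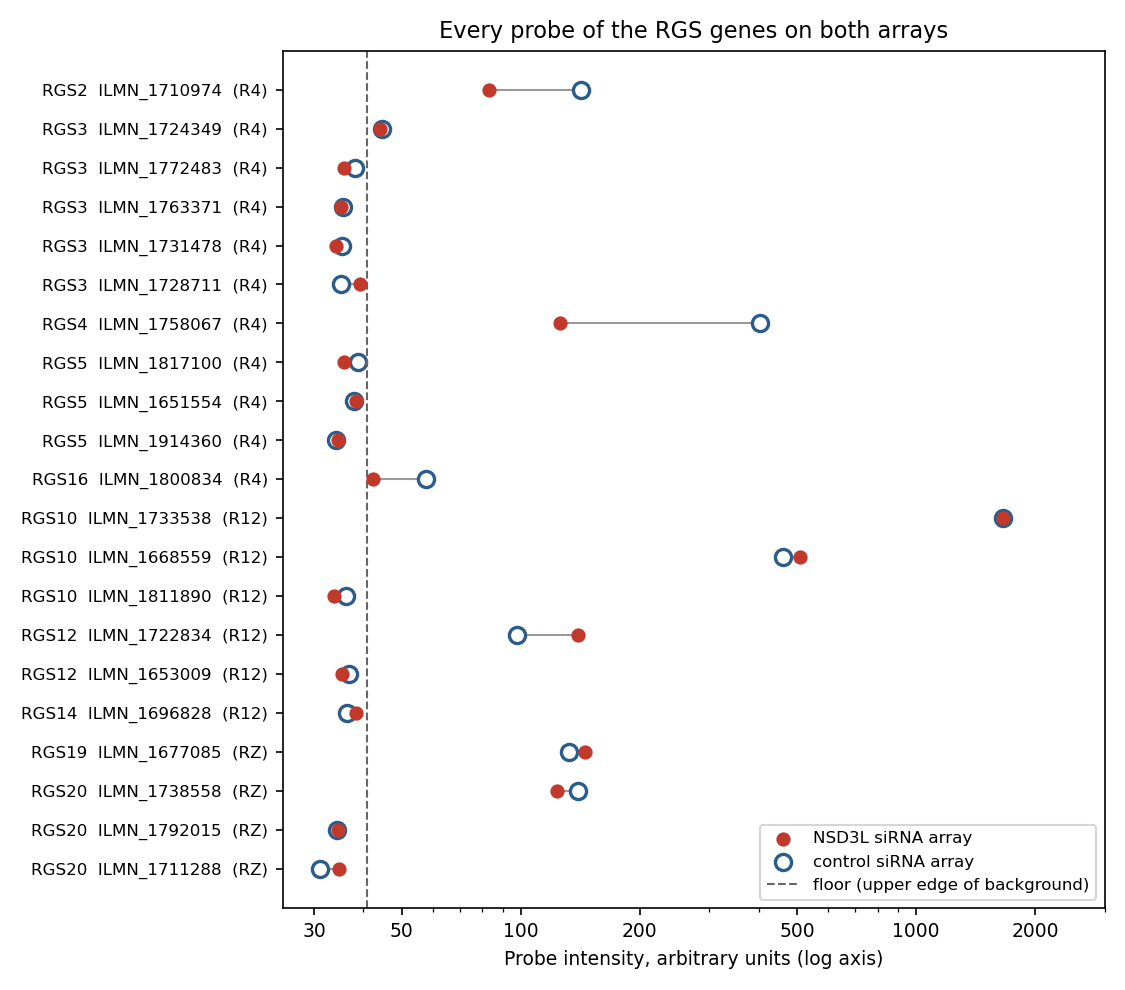
Intensity of every probe of the 10 RGS genes on the NSD3L siRNA array (filled) and the control siRNA array (open), on a log axis in arbitrary units, with 1 row per probe and the subfamily in brackets. The dashed line is the floor of the NSD3L siRNA array, at 40.9; RGS4 has the widest gap, 125 in NSD3L siRNA cells against 402 in control cells, and 12 of the 21 probes lie left of the line on both arrays.

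RGS2, a regulator with a preference for the Gq alpha subunit and a known role in blood pressure control, read 82.9 in NSD3L siRNA cells and 142 in control cells. It was 1.71-fold lower, a log2 ratio of -0.77. Of 1651 similarly bright probes, 18 had a ratio as low, or 1.09%, with an SD of 0.32. RGS2 was the only relative of RGS4 that differed more than 1.5-fold, where 4.06% of all genes were more than 1.5-fold lower and 3.63% more than 1.5-fold higher. The log2 ratio of RGS4 less that of RGS2 was -0.91.

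RGS16, a light- and clock-responsive member that acts on Gi and Gq, read 42.4 in NSD3L siRNA cells and 57.5 in control cells. It was 1.36-fold lower, a log2 ratio of -0.44. The NSD3L siRNA reading was barely above the floor of 40.9, where the background limits how low a ratio can read. Of the 1651 probes with a mean intensity of 46.2 to 50.5, 11 had a log2 ratio as low, or 0.666%.

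RGS3 and RGS5 complete the R4 subfamily, RGS3 near the floor and RGS5 at background. RGS3, which is made in several forms with long amino-terminal extensions, had 5 probes annotated to 5 different transcripts. One of them (ILMN_1724349) read 44.0 in NSD3L siRNA cells and 44.5 in control cells, a log2 ratio of -0.02. The other 4 read between 34.2 and 39.2 over both arrays, at background. The 3 probes of RGS5, the pericyte member of the subfamily, read between 34.1 and 38.8 and were at background on both arrays. No difference of RGS5 was detectable at this signal. Leaving out RGS4, which was chosen for its ratio, the 3 R4 members above background had log2 ratios of -0.77, -0.44 and -0.02, where 50.6% of all genes were lower by any amount. The ratio of RGS3 was within 1 SD of similarly bright probes around 0.

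The R12 subfamily read level or higher. RGS10, a small regulator of Gi signalling best known from immune cells, was measured by 3 probes. ILMN_1733538 read 1659 on both arrays, a log2 ratio of 0.00. It held rank 582 by brightness on both. The 7932 brightest values, put in order, were identical on both arrays, so at this brightness the exact equality shows only that its rank was unchanged. ILMN_1668559 read 509 in NSD3L siRNA cells and 462 in control cells, a log2 ratio of 0.14. The third RGS10 probe (ILMN_1811890), annotated to another transcript, read 33.6 in NSD3L siRNA cells and 36.2 in control cells, at background.

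RGS12, a large scaffold with a PDZ domain and a Ras-binding domain beside its RGS domain, was the member with the highest ratio. Its probe ILMN_1722834 read 139 in NSD3L siRNA cells and 97.8 in control cells, 1.43-fold higher and a log2 ratio of 0.51. Of 1651 similarly bright probes, 116 had a ratio as high, or 7.03%, and the SD was 0.37. The other RGS12 probe (ILMN_1653009), of another transcript, read 35.3 in NSD3L siRNA cells and 36.7 in control cells, at background. RGS14, the brain-enriched relative of RGS12 with the same domains for Ras and GoLoco binding, read 38.3 in NSD3L siRNA cells and 36.4 in control cells. Both readings were at background, so the 3 genes of the subfamily gave only 2 ratios.

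The RZ subfamily differed little. RGS19, also known as GAIP and found on clathrin-coated vesicles, read 145 in NSD3L siRNA cells and 132 in control cells, a log2 ratio of 0.14. RGS20, a regulator with a preference for Gz, had 3 probes. ILMN_1738558 read 123 in NSD3L siRNA cells and 139 in control cells, a log2 ratio of -0.18. The other 2 RGS20 probes read 31.1 to 34.8, at background, although one of them (ILMN_1711288) is annotated to the same transcript record as ILMN_1738558. The probes of RGS20 thus disagreed on whether the gene was detected. The ratios of both RZ genes were within 1 SD, 0.37, of similarly bright probes.

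In all, 8 of the 10 members were above background on both arrays, as were 10545 of the 18774 named genes. Of the 8 members, with RGS4 included, 5 were lower, 2 higher and RGS10 equal, where 50.6% of all genes were lower. Their median log2 ratio was -0.10, against 0.00 over all genes above background. The 7 relatives of RGS4 had log2 ratios between -0.77 and 0.51 and a median of -0.02, so the log2 ratio of RGS4 less the median of its relatives was -1.67. RGS4 was chosen for its ratio, so this gap and the figures that include RGS4 support nothing by themselves. In the order of ratios, RGS3, RGS10, RGS19 and RGS20 lay within 1 SD of similarly bright probes around 0. In units of that SD, RGS12 lay at 1.38, RGS2 at -2.40, RGS16 at -2.66 and RGS4 at -4.25. That SD is a spread between probes. With 1 array per group, these data do not show whether the order of any members would hold between cultures.

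**Figure D2:**
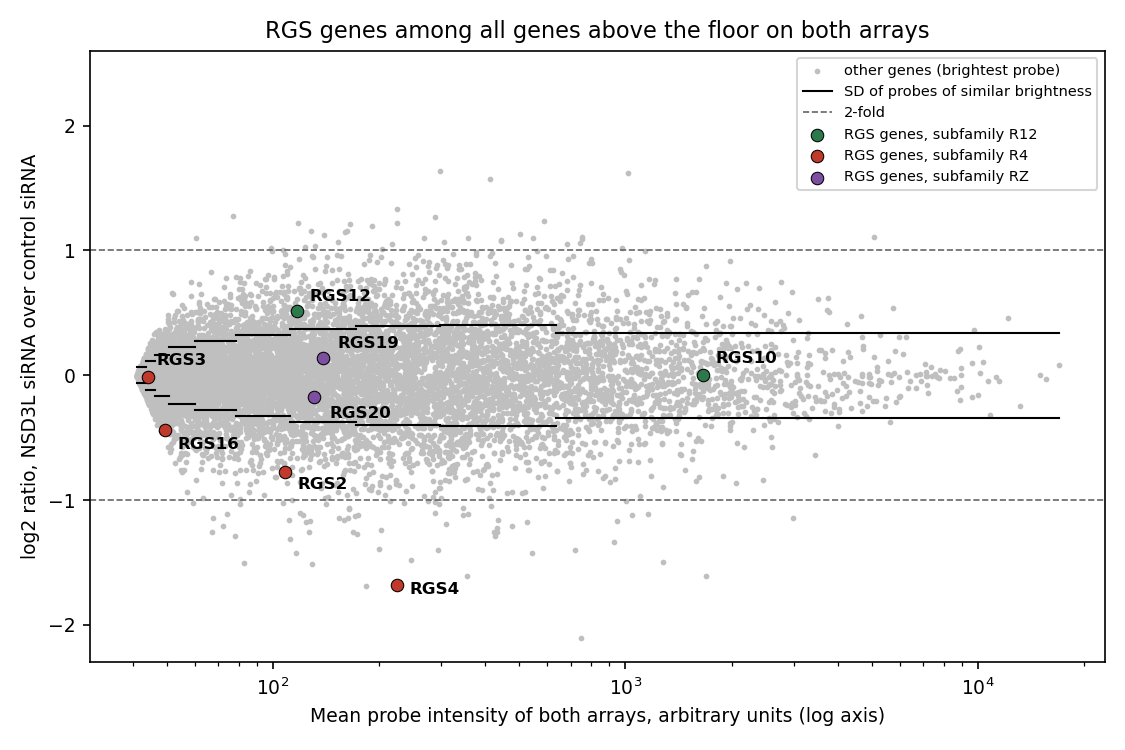
Log2 ratio of NSD3L siRNA cells over control cells against the mean intensity of both arrays (log axis, arbitrary units) for every gene above background on both arrays, by its brightest probe. Coloured points are the 8 RGS genes, solid steps are 1 SD over similarly bright probes, and dashed lines mark 2-fold; RGS4 lies at -1.68, far below its relatives, which run from -0.77 to 0.51.

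The genes with the ratios most like that of RGS4, over these 2 arrays, were those beside it in the order of ratios. CLDND1, a claudin-domain membrane protein, and NXT2, of mRNA export, came below it, NXT2 at 103 in NSD3L siRNA cells against 330 in control cells and a log2 ratio of -1.69. GHITM, TMED5 and SCG5 followed above it, with log2 ratios of -1.61, -1.60 and -1.51. Over 2 arrays, likeness means only a like ratio.

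Other RGS genes were looked up as a list of 12. Named probes covered 10 of them, and 3 were above background on both arrays. RGS17, of the RZ subfamily, read 108 in NSD3L siRNA cells and 135 in control cells, a log2 ratio of -0.33. RGS7, a partner of the G-beta-5 subunit, read 181 in NSD3L siRNA cells and 199 in control cells, a log2 ratio of -0.13. RGS11 read 42.2 in NSD3L siRNA cells and 42.6 in control cells, a log2 ratio of -0.01. RGS6 was above background in NSD3L siRNA cells alone, at 44.1 there against 38.8 in control cells, at least 1.08-fold higher. With the members, 11 of 20 RGS genes on the array were above background on both arrays, of which 8 were lower and 2 higher. Over all genes above background, 50.6% were lower by any amount. The 8 include RGS4, which was chosen for its ratio, and RGS3 and RGS11, with log2 ratios of only -0.02 and -0.01. RGS4 was the only RGS gene past 2-fold. In the list of other proteins with an RGS or RGS-like domain, 10 of 16 genes were above background, 4 higher and 6 lower, with a median of -0.07. None was past 1.5-fold in the intensities as deposited. The sorting nexin gene SNX13 had a log2 ratio of -0.38 and the scaffold gene AXIN1 of WNT signalling 0.38.

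The rest of the pathway was read from lists of receptors, G-protein subunits, effectors and partners. Over all 9 lists, 84 of 156 genes were above background on both arrays, with a median log2 ratio of -0.01. One gene was more than 2-fold higher and none more than 2-fold lower, where 0.948% of all genes were past 2-fold in either direction. At 1.5-fold, 5 were higher and 3 lower, 9.52% of the 84, against 7.69% of all genes.

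Among the receptors, 21 of 40 were above background on both arrays, 12 higher and 9 lower, with a median of 0.04. LPAR1, the receptor for lysophosphatidic acid, read 1266 in NSD3L siRNA cells and 807 in control cells, a log2 ratio of 0.65 and the only one past 1.5-fold. The orphan receptor gene GPRC5A had 0.52, the adenosine receptor gene ADORA2A 0.51 and ADGRE5 0.41. EDNRB, the endothelin receptor gene, had -0.40. The receptor for thrombin, F2R, whose signal runs through Gq and Gi, read 174 in NSD3L siRNA cells and 198 in control cells, a log2 ratio of -0.19.

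The alpha subunits, on which RGS proteins act, showed no member past 1.5-fold. Of 15 genes 9 were above background, 6 higher and 3 lower, with a median of 0.11. GNAI2, an inhibitory alpha subunit, read 507 in NSD3L siRNA cells and 356 in control cells, a log2 ratio of 0.51. Its relatives GNAI1 and GNAI3 had -0.41 and -0.36, and a dimmer GNAI3 probe gave 0.19. GNA11, of the Gq class, had 0.45, with 0.25 from its other probe, while GNAQ itself had -0.11. GNAI1 read 42.3 in NSD3L siRNA cells against 56.2 in control cells, close to the floor, as RGS16 did.

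The gamma subunits held the lowest ratios of all 84 list genes above background. GNG12 read 136 in NSD3L siRNA cells and 257 in control cells, a log2 ratio of -0.91. GNG11 was bright on both arrays, at 1433 in NSD3L siRNA cells and 2510 in control cells, a log2 ratio of -0.81. GNG10 had -0.41 and its other probe -0.42. The beta subunit gene GNB1 had 0.26. Of the 17 beta and gamma genes, 8 were above background, 2 higher and 6 lower, with a median of -0.03.

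The effectors went both ways. ADCY3, an adenylyl cyclase that makes cAMP, read 646 in NSD3L siRNA cells and 304 in control cells. Its log2 ratio of 1.09 was the only one past 2-fold in the 9 lists. The cyclase gene ADCY9 had 0.58. ITPR3, a calcium channel opened by inositol trisphosphate downstream of Gq, had 0.66, at 1943 in NSD3L siRNA cells against 1227 in control cells, while its relative ITPR1 had -0.73, at 98.2 in NSD3L siRNA cells against 163 in control cells. The list had 11 of 23 genes above background, 7 of them higher and 4 lower, and a median of 0.11.

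Among chaperones and partners, 7 of 15 were above background and had a median of 0.00, 4 of them higher and 3 lower. GPSM3, a GoLoco protein, had 0.66 and RIC8A, the chaperone of Gi and Gq alpha subunits, 0.49. CCDC88A, a non-receptor activator of Gi, had -0.44 and the calcium-binding protein gene NUCB2 -0.42. Arrestins end receptor signalling by another route, but of the 5 genes above background in their list only ARRB1 is of that kind. The others are of the alpha-arrestin fold. The list had 3 higher and 2 lower. ARRB1 had -0.03, and of the alpha-arrestin genes TXNIP had 0.64, ARRDC3 -0.51 and ARRDC1 0.27.

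RGS4, RGS5 and RGS16 proteins are known to be degraded through the N-degron pathway, which reads an oxidised and arginylated amino-terminal cysteine. Of 11 pathway genes 10 were above background, 3 higher and 7 lower, with a median log2 ratio of -0.18, and none was past 1.5-fold. ATE1, the arginyl transferase, had -0.58 by its brightest probe, at 65.7 in NSD3L siRNA cells against 98.0 in control cells, and -0.19 and 0.03 by its other probes. ADO, the cysteine dioxygenase, had -0.48, METAP2 -0.27 and UBR4, a recognition protein, 0.28. Arrays measure RNA, so the levels of RGS proteins were not measured here.

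**Figure D3:**
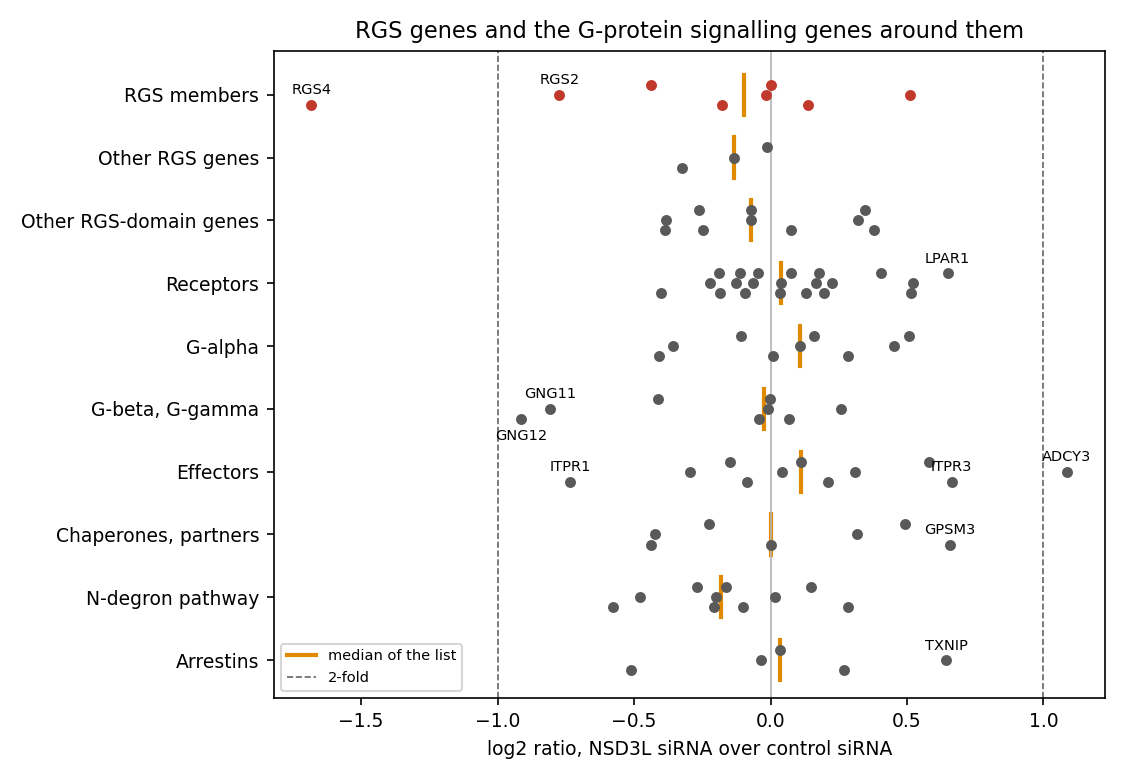
Log2 ratio of NSD3L siRNA cells over control cells for the 8 RGS genes (top row) and for the genes of 9 G-protein signalling lists above background on both arrays. Each point is a gene by its brightest probe, the upright bar is the median of the list, dashed lines mark 2-fold, and genes past 1.5-fold are named; RGS4 at -1.68 and ADCY3 at 1.09 are the only points beyond the dashed lines.

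The background in the deposited values mattered most for RGS2 and RGS16. With the most frequent intensity of each array subtracted, RGS4 read 90.6 in NSD3L siRNA cells against 368 in control cells, 4.06-fold lower. RGS2 then read 48.1 in NSD3L siRNA cells against 107 in control cells, 2.22-fold lower, a log2 ratio of -1.15. RGS16 read 7.57 in NSD3L siRNA cells against 22.6 in control cells, 2.99-fold lower, a log2 ratio of -1.58. Leaving out RGS4, 2 of its 7 relatives above background, RGS2 and RGS16, were more than 2-fold lower under that setting, where 3.4% of all genes were, and 2.42% were more than 2-fold higher. RGS12 was 1.66-fold higher, still under 2-fold. After subtraction the readings of RGS16 were small, and noise weighs more on small readings.

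**Figure D4:**
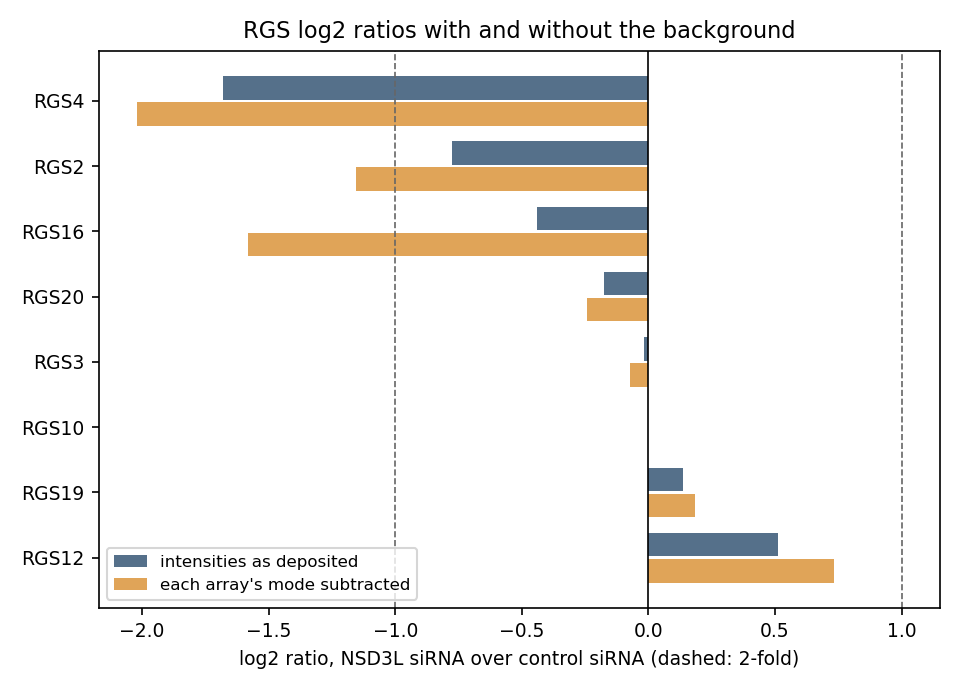
Log2 ratio of NSD3L siRNA cells over control cells for the 8 RGS genes above background, from the intensities as deposited and with each array's most frequent intensity subtracted; bars start at 0 and dashed lines mark 2-fold. RGS4 lies beyond 2-fold both ways, RGS2 (-0.77 and -1.15) and RGS16 (-0.44 and -1.58) only after subtraction, and RGS10 has no bar because it read the same on both arrays.

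The genes around RGS4 on chromosome 1 did not share its ratio. RefSeq lists 11 other protein-coding genes within 1 Mb of its midpoint, of which 5 were above background on both arrays. UHMK1 had a log2 ratio of -0.55 and NUF2, of the kinetochore, -0.42, while CCDC190 had 0.01, UAP1 0.20 and HSD17B7, of sterol synthesis, 0.39. RGS5, the next RGS gene along the chromosome, was at background.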

How the data were processed

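RNA of 1 NSD3L siRNA culture and 1 control siRNA culture was measured on 1 array each. The authors' deposited values are linear intensities for 48701 probes. The submitters' processing notes name BeadStudio. Its version and its correction and normalization settings are not given in these sources. The sorted values of both arrays differed by at most 0.025 on the log2 scale, and the 7932 brightest were identical, so no scaling was added. A shift common to all genes would therefore not show in these values. The number of arrays limits the precision, and no test was possible. From the deposited intensities the log2 ratio was computed per probe (Python 3.11.15, numpy 2.4.6, pandas 2.3.3), with a floor of 2 times each array's mode less its 1st percentile. The mode was the peak of a kernel density below the 75th percentile (scipy 1.17.1). The ratio script was tested on simulated data. SDs were taken in 10 equal groups by brightness. One gene symbol was held by 23687 probes, several by 35 and none here by 24979; 23651 of the first were updated through RefSeq. The annotation's platform record may be of another array version than the 3.0 in the series description, which would bear on all names. RefSeq upstream windows matched 9 of 10 members. Named were all member and NSD3 probes, up to 4 genes with the largest ratio per list, list genes past 2-fold, neighbours within 1 Mb of RGS4 and the genes beside it in the order of ratios. GNAQ, F2R, EDNRB, RGS6, the markers and the genes named around the other members are outside that rule and were picked with their values known. Some genes that the rule would name are not reported here. Members and lists were chosen with earlier results of these data known.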

Additional observations from a re-analysis of the deposited data

How the results depend on the processing

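Ratios were recomputed after median centring, after quantile normalization, with a lowess trend on intensity (span 0.3) taken out, with an offset of 16, with each array's mode subtracted, without a floor, with the 75th percentile as floor, and as the mean over a gene's probes. Across these 8 the log2 ratio of RGS4, the value the family was selected on, ran from -2.02 with the mode subtracted to -1.57 with the offset. It stayed past 2-fold. Quantile normalization, no floor, the 75th percentile as floor and the mean over probes left it at -1.68 and could not have moved it. RGS4 has 1 probe, above these floors on both arrays, and the 7932 brightest values in order were already identical on both arrays. Mode subtraction raised the count of members more than 2-fold lower to 3, with RGS4 included. It raised the count of genes past 2-fold in the G-protein lists to 8, against 1 for each as reported. Shares over all genes rose too, from 0.607% to 3.4% more than 2-fold lower and from 0.341% to 2.42% more than 2-fold higher. The 8 list genes included ADCY3, ADCY9 and ADORA2A, higher, and GNAI1, GNG12, ITPR1 and ATE1, lower, and 1 was of the list of other proteins with an RGS or RGS-like domain, higher. A 1.5-fold threshold gave 2 members lower, RGS4 and RGS2. No member was more than 2-fold higher under any alternative run. Of 55 ratios of the other 7 members under alternatives, 3 moved by more than the SD of similarly bright probes: RGS2 and RGS16 with the mode subtracted, and RGS16 with the 75th percentile as floor, where it became a bound of -0.24. No paired analysis was possible because each group had 1 array. RGS5, RGS14 and the 12 probes under the floor are limited by signal over background.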

Other observations

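The genes around the other members were looked up after the data had been seen, by the same distance of 1 Mb. Around RGS2 on chromosome 1, all 4 measured neighbours were lower in NSD3L siRNA cells, with log2 ratios of -0.22 for UCHL5, a deubiquitinase of the proteasome, -0.24 for GLRX2, -0.31 for CDC73 and -0.34 for RO60. Around RGS20 all 4 measured neighbours were lower too, from -0.28 for TCEA1 to -0.41 for LYPLA1, while RGS20 itself had -0.18. Around RGS14, 23 of 28 measured neighbours were higher, with a median of 0.19, and around RGS12 9 of 12 were higher, with a median of 0.26. RGS12 itself had 0.51. Around RGS19 14 of 18 were higher, with a median of 0.12. Around RGS3 7 of 17 were higher, with a median of -0.05, and around RGS10 3 of 9, with a median of -0.08. None of the neighbours of these 7 genes was past 2-fold. Around RGS5 3 of 6 were higher, with a median of -0.21 and RGS4 itself among them. Over all genes above background 50.6% were lower. Neighbouring genes are not independent of each other, and no test was made. Around RGS16, DHX9 had 0.38, LAMC1, a laminin chain gene, 0.19 and NMNAT2, an enzyme of NAD synthesis, -0.59, at 125 in NSD3L siRNA cells against 187 in control cells.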
